A study of Caenorhabditis elegans with 2 samples.

Results

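Peaks of the tagged nuclear receptor NHR-179 on chromosome X, away from gene starts and small RNA genes, are described here. They were taken from the authors' peak list of the pooled replicates on the genome build ce11, in which each peak has a summit, the position of its highest point. A peak was kept when its summit lay more than 500 bp from every protein-coding transcript start and more than 200 bp from every tRNA, snRNA, snoRNA or rRNA gene. The rule kept 1840 of the 2640 X peaks, in a pooled list of 9606. Of the other X peaks, 589 lay at promoters and away from small RNA genes, and 211 lay near small RNA genes. On chromosomes I to V the same rule kept 4417 peaks. These are called distal peaks below, and the 1840 on X the members.

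The assay was ChIP-seq with an antibody against GFP on whole Caenorhabditis elegans hermaphrodites. Strain OP465 carries unc-119(tm4063) III and the transgene wgIs465, which makes NHR-179 fused at its C-terminus to GFP and FLAG. Young adults were collected 64 hours after starved L1 larvae were synchronized, and 2 biological replicates, which the labels number 2 and 3, form 1 group. Every animal carried the tag, whole animals mix all tissues, and a strain without the tag was not analysed here, so a peak cannot be assigned to binding of NHR-179 itself.

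Nuclear hormone receptors are transcription factors that bind DNA through zinc fingers, commonly at copies of the sequence AGGTCA, and nematodes have a greatly enlarged family of them. Chromosome X of C. elegans has a protein machinery of its own. In hermaphrodites the dosage compensation complex, which is related to condensin, loads onto X at recruitment elements and spreads from there to lower X expression. Many recruitment elements lie outside promoters and carry a motif that is enriched on X, whose core holds GCGCAGGG and whose longer form has TC before and AG after that core. No protein of that complex was assayed here.

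The sequences around the summits with the highest signal carried this core again and again. The signal is the authors' value for each peak, on a scale not given in the sources used here, and it is used only to rank peaks within a list. Of the 12 members with the highest pooled signal, 6 held GCGCAGGG within 50 bp of the summit, on either strand, and 11 held it with at most 1 mismatch. Shown first are the 8 exact copies among the 25 highest members, then the copies with 1 mismatch among the highest 12. Each line gives 60 bases of the reference genome WBcel235, the same assembly as ce11, read 5′ to 3′ on the strand that carries the word, which stands in capitals. A substitution such as C4A gives the word's base, its position counted from 1 at the word's 5′ end, and the base at the site.
mom-1 (chrX:6296550-6296609, plus strand): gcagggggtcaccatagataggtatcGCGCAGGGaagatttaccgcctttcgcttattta
nspc-17 (chrX:14525874-14525933, minus strand): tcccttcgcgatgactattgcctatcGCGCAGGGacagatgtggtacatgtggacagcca
W02H3.3 (chrX:11094200-11094259, minus strand): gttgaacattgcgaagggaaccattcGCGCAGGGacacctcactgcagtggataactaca
gtr-1 (chrX:806648-806707, plus strand): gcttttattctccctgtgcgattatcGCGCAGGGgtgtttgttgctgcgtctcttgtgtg
ins-39 (chrX:1345030-1345089, plus strand): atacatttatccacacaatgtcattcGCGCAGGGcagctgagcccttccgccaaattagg
Y41G9A.17 (chrX:2997097-2997156, minus strand): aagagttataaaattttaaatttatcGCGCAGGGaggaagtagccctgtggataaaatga
T24D8.6 (chrX:2364873-2364932, minus strand): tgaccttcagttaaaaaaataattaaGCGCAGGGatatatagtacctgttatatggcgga
T26C11.2 (chrX:1837866-1837925, plus strand): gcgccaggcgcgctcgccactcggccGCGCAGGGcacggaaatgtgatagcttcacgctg
ZK899.6 (chrX:9465857-9465916, plus strand, C4A): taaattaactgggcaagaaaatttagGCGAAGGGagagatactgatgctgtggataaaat
K02D3.1 (chrX:13700878-13700937, minus strand, C4A): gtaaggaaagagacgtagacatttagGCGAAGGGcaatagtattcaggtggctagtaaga
F20B6.9 (chrX:4209266-4209325, plus strand, C4A): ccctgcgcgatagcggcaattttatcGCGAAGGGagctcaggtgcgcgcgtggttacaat
F55G7.5 (chrX:11937515-11937574, plus strand, G1A): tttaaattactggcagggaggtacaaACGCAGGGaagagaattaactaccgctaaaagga
F22H10.2 (chrX:16682073-16682132, minus strand, G8A): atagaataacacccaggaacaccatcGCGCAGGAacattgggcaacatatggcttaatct

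The window of mom-1 held 2 exact copies, and its 101 bases are given whole to show their spacing.
mom-1, whole window (chrX:6296523-6296623, plus strand): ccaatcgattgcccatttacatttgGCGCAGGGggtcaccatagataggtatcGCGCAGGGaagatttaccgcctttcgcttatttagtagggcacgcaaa

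In these lines the word sat in a shared context more than once. TC stood directly before the word in 6 of the 8 exact copies and in 9 of the 17 copies, exact or with 1 mismatch, of the 25 highest members, counting 1 copy for each member. The same 8 bases with C4A, GCGAAGGG, made up 4 of the 9 copies with a mismatch. A second copy at no more than 1 mismatch lay in the same window in 5 of the 25 members, for example in W02H3.3, where GCGAAGGG precedes GCGCAGGG on the same strand. Of the 17 counted copies, 13 had their centre within 25 bp of the summit.

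The signal of the members fell steeply at the top and was nearly flat below. It ran from 30.1 to 179.7, with quartiles of 32.7, 36 and 41.8. The deposited −log10 of the q-value ran from 0.0176 to 2.48 with a median of 0.0835, and per the deposited file descriptions the list holds background as well as peaks. The authors' optimal list, made by comparing the ranks of the replicates, held 25 members (1.36%, exact 95% interval 0.881 to 2.00%), against 2.67% of all pooled peaks. The share was 0.679% of autosomal distal peaks (0.459 to 0.968%), 1.19% of X promoter peaks and 35.1% of X peaks near small RNA genes. These 25 were also the 25 members with the highest signal. They are called optimal members below. Intervals are exact Clopper-Pearson intervals over peaks and cover counting error only.

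**Figure D1:**
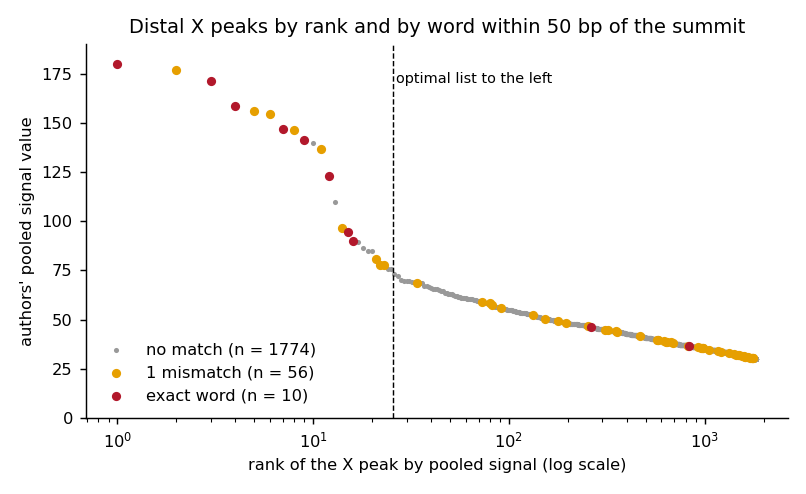
Pooled signal value of each member (vertical axis, linear) against its rank among the 1840 members (horizontal axis, log scale). Red points hold GCGCAGGG within 50 bp of the summit (10 members), orange points hold it with 1 mismatch, grey points hold neither, and the dashed line ends the 25 members of the optimal list, which hold 8 of the 10 exact copies.

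The member with the highest signal lay in an intron of mom-1, which encodes an acyltransferase needed for secretion of Wnt signals (chrX:6296351-6296794, pooled signal 179.7). Its summit had a signal of 106.5 in replicate 2, where it was peak 25 of the list, and 80.2 in replicate 3, where it was peak 36. Both replicates therefore placed it near the top of their lists of 12866 and 13745 peaks. The next, intergenic and named by its nearest start ZK899.6 at 2540 bp (chrX:9465663-9466106), had a pooled signal of 177.0, with 99.3 in replicate 2 and 75.1 in replicate 3. The peak 755 bp from the start of nspc-17, a nematode-specific peptide gene (chrX:14525850-14525981), had a pooled signal of 171.2, with 91.3 and 77.6 in the replicates. This peak and the next were the only members not 444 bp wide, at 132 and 180 bp. The intergenic peak named by W02H3.3 (chrX:11094146-11094325, pooled signal 158.4) had 87.2 in replicate 2 and 70.2 in replicate 3.

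Most of the following peaks also lay between genes and recurred at high ranks. The peak 6022 bp from the start of K02D3.1 had a pooled signal of 156.2, and that 1352 bp from the start of F55G7.5 had 154.4. The peak 3914 bp from gtr-1, a G protein-coupled receptor gene, had 146.6, and that of F22H10.2 had 146.1. The peak 647 bp from ins-39, which encodes an insulin-like peptide, had 141.0, with 75.8 in replicate 2 and 63.6 in replicate 3. All of the highest 12 were found in both replicates, at ranks 25 to 80 in replicate 2 and 33 to 85 in replicate 3. Completing these 12 were the peaks of F19H6.5 (139.6), F20B6.9 (136.4) and Y41G9A.17 (123.0, in an intron), and of the 12 only that of F19H6.5 held no copy of the word at up to 1 mismatch within 50 bp of the summit.

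Below rank 12 the optimal members were less alike. C30E1.4 named an intergenic peak with a signal of 109.6 and no copy of the word within 50 bp of the summit. The peak of fbxb-58, an F-box gene, had a pooled signal of 96.8, with 67.0 in replicate 2, at rank 65, and 31.5 in replicate 3, at rank 700. T24D8.6 and T26C11.2 named peaks with an exact copy, at pooled signals of 94.3 and 89.7, the second inside the pseudogene T26C11.3. Neither of the peaks in coding exons held a copy within 50 bp of the summit. These were in pks-1, a polyketide synthase gene (89.7), and in col-184, a cuticle collagen gene (86.5, 38.04 in replicate 2 and 47.4 in replicate 3).

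The last optimal members recurred less evenly. M163.11 named a peak with 84.9. F56C3.1 (84.6), F43E12.1 (80.6) and lin-14 (77.7) named peaks with a summit within 100 bp in replicate 2 alone, at ranks 64, 184 and 121. The lin-14 peak, inside the gene of a regulator of developmental timing, had its summit in the non-coding RNA gene T25C12.7. T27A8.7 (77.7) was at ranks 177 and 809. F09C8.2 (75.95, in an intron) was found in replicate 3 alone, at rank 133, and hrg-1, a heme transporter gene, named the last (75.7), at ranks 1595 and 3746. The first member outside the optimal list, named by F55A4.13, had a signal of 73.2, with 42.0 in replicate 2 and 29.8 in replicate 3. Of the 25, 21 were found in both replicates, 3 in replicate 2 alone and 1 in replicate 3 alone. By overlapping intervals, in place of summits within 100 bp, all 25 were in both replicates. The absences given here thus depend on the summit distance used.

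Over all members, recurrence was low and close to that of the whole list. A summit within 100 bp was present in both replicate lists for 422 of 1840 members (22.9%, 21.0 to 24.9%), against 24.7% of all pooled peaks. Replicate 2 held 972 members (52.8%) and replicate 3 held 1037 (56.4%), and 253 (13.75%) were in neither. The share in both was 25.98% of the X promoter peaks (22.5 to 29.7%) and 21.6% of the autosomal distal peaks (20.3 to 22.8%), and both intervals overlap that of the members. By rank, it was 84.0% for members 1 to 25, 76.0% for 26 to 100, 49.5% for 101 to 500, 20.8% for 501 to 1000 and 5.00% for 1001 to 1840. The pooled signal holds the reads of both replicates, so this order is not independent of recurrence.

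**Figure D2:**
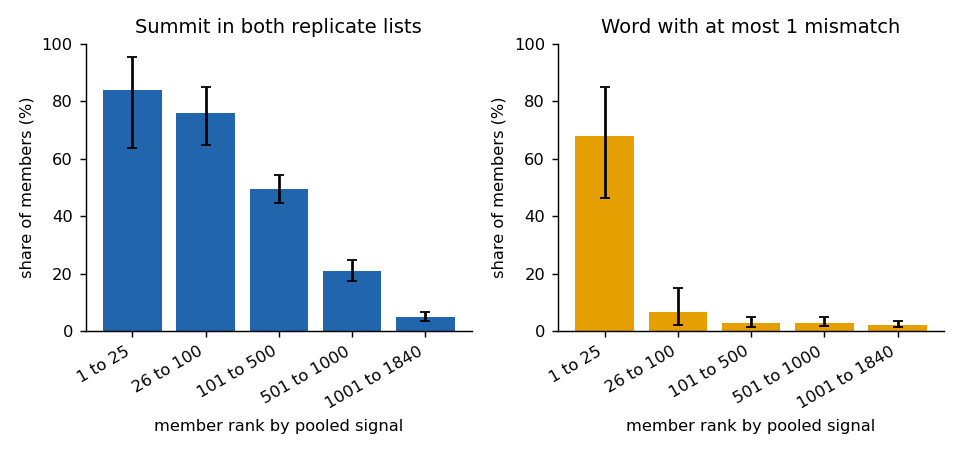
Share of members, in 5 groups of rank by pooled signal, whose summit was within 100 bp of one in both replicate lists (left) and whose window of 101 bp held GCGCAGGG with at most 1 mismatch (right). Bars are percent of members with exact 95% intervals; recurrence declines over all 5 groups from 84.0 to 5.00%, whereas the word drops from 68.0% to 6.67% after the first group.

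Among the 422 members found in both lists, the signals of the 2 biological replicates had a Spearman rho of 0.244, a description across peaks. It was 0.766 across the 21 optimal members and 0.127 across the other 401. Across the 952 autosomal distal peaks in both replicates rho was 0.224, and across 153 X promoter peaks 0.209. The optimal list was made by comparing the replicates' ranks, and it held exactly the peaks with the highest pooled signal. The values for its members and for the others are therefore not independent of that choice. When each replicate's own list was put through the rule, 14 of the 25 highest peaks of one replicate were among the 25 highest of the other. Of the 25 highest, 20 in replicate 2 and 17 in replicate 3 were also optimal members.

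**Figure D3:**
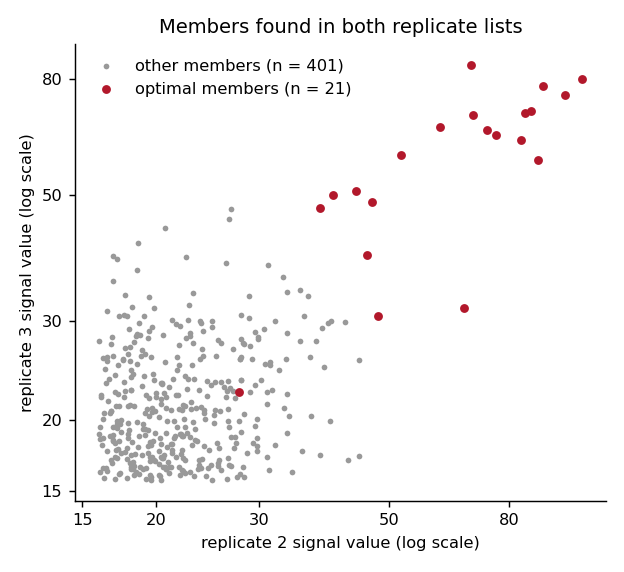
Signal value in replicate 2 (horizontal, log scale) against replicate 3 (vertical, log scale) for the 422 members found in both lists. The 21 optimal members (red) extend to the upper right, up to 106.5 in replicate 2, and 1 of them, at 27.7 and 22.4, lies among the 401 others (grey).

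The exact word was rare outside the optimal members. GCGCAGGG, searched on both strands in the 101 bp centred on the summit, was in 10 of 1840 members (0.543%, 0.261 to 0.997%), against 0.125% of all nuclear pooled peaks, and 8 of the 10 were optimal members. None of members 26 to 100 held it, and 1 each did in ranks 101 to 500 and 501 to 1000. It was in 1 of 589 X promoter peaks and in 0 of 4417 autosomal distal peaks, which allows a share of up to 0.0835% there. Of 141302 windows of the same length laid end to end over the X sequence that meets the rule, 52 (0.0368%) held it. On I to V, 139 of 618198 such windows (0.0225%) held it, so 0 of 4417 cannot be told from that background. Without the optimal members, the share of members with the word was 0.110%. The shorter word CGCAGGG, contained in GCGCAGGG, was in 14 members and in 0.149% of the X windows.

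Allowing 1 mismatch, a search chosen after the data were seen, gave 66 members (3.59%, 2.78 to 4.54%) against 1.23% of the X windows. The word so searched was also in 3.40% of X promoter peaks (2.09 to 5.20%), 3.32% of X peaks near small RNA genes, 2.40% of autosomal distal peaks (1.97 to 2.90%) and 2.93% of all nuclear pooled peaks. The optimal members held it in 17 of 25 (68.0%, 46.5 to 85.1%), and later groups of rank in 6.67%, 2.75%, 3.00% and 2.14%. Among the 30 autosomal distal peaks in the optimal list 2 held it, and among the 7 X promoter peaks 2. Median GC of the windows was 43.6% in the optimal members, 44.6% in those 30 and 54.5% in those 7. The part of GC in these shares was not tested. The replicates' own lists gave the exact word in 7 and 10, and the word with up to 1 mismatch in 16 and 13, of their 25 highest peaks under the rule.

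Over the whole peak interval, a search also added after the data were seen, 12 of the 25 optimal members held the exact word (48.0%, 27.8 to 68.7%) and 19 held it with at most 1 mismatch. Of the other members 9 of 1815 (0.496%) and 186 (10.2%) did. The peaks of F22H10.2, F19H6.5, F20B6.9 and pks-1 held an exact copy in the interval though not within 50 bp of the summit, so all of the highest 12 held a copy at up to 1 mismatch.

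**Figure D4:**
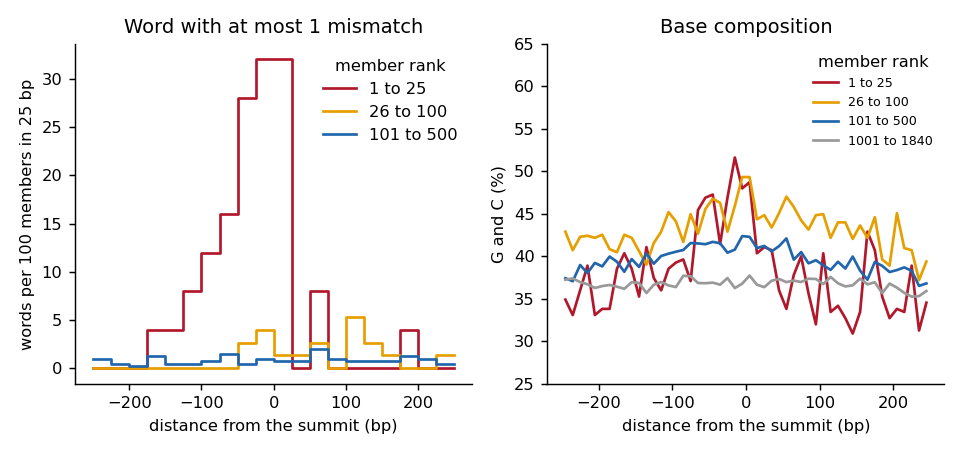
Left, copies of GCGCAGGG with at most 1 mismatch per 100 members in steps of 25 bp, by distance from the summit, for members 1 to 25, 26 to 100 and 101 to 500. Right, percent G and C by distance from the summit for these groups and members 1001 to 1840; the word reaches 32 copies per 100 optimal members beside the summit, where G and C reach 51.6%.

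Read from the genome, the word was more often near a summit on X than on other chromosomes, and so were most words with 1 mismatch to it. GCGCAGGG occurs at 81 places on X, 4.57 per Mb, and at 233 on I to V, 2.82 per Mb. A pooled summit lay within 100 bp of 20 of the X places (24.7%, 15.8 to 35.5%) and of 11 of the autosomal ones (4.72%, 2.38 to 8.29%). Of the 20, 18 were near a member, and 13 near an optimal member. GCGAAGGG had a summit within 100 bp at 21 of 140 X places (15%), 10 of them near an optimal member, and at 11 of 491 autosomal places (2.24%). Other words with 1 mismatch had shares on X that reached 14.9% for GCGCCGGG, 12.2% for GCGCTGGG and 12.05% for GGGCAGGG, with 1, 0 and 3 places near an optimal member. On I to V these words had 5.50%, 3.61% and 4.31%. Among words with 1 mismatch, only GAGCAGGG had a lower share on X, 2.12% against 3.71%. Distal peaks as a whole were denser on X, at a ratio of 1.82. Most copies on X thus had no pooled summit within 100 bp, and 29 of the 81 had a summit within 250 bp.

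TC before the word was more frequent at copies with a summit within 100 bp than at other copies, though the intervals on X overlap. TC preceded GCGCAGGG at 9 of the 20 X places near a summit (45.0%, 23.1 to 68.5%), at 10 of the 61 other X places (16.4%, 8.15 to 28.1%) and at 6 of the 233 autosomal ones (2.58%, 0.951 to 5.52%). With AG after it as well, the longer form was at 1 of the 20 and 2 of the 61. A count of all words of 8 bases in the 25 optimal windows, also made after the data were seen, was led by CCTGCGCG, in 9 windows and in 11 of all members. This word overlaps GCGCAGGG, which is CCCTGCGC on the other strand. TATCCACA, which shares no 4 bases in a row with it, was in 5 of the 25 windows and in 9 of all members.

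The nuclear receptor site AGGTCA was about as frequent in members as in the X windows, at 2.88% of members (2.16 to 3.75%) and 2.60% of windows. Its variant GGGTCA was in 1.90% and 1.62%. Another form, AGTTCA, was lower in members, at 5.82% (4.79 to 6.98%) against 7.47%.

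Words of other kinds are given in the same order, members and then X windows. The word GAGAGA was in 5.49% and 4.60%, CACGTG, the site of many basic helix-loop-helix factors, in 2.12% (1.51 to 2.89%) and 1.28%. The site of leucine zipper factors, TGACTCA, was in 1.14% and 1.06%. A GATA factor site, TGATAA, was in 8.15% and 9.84%. Runs of TTTTTTTT were in 8.75% of members and 11.8% of windows. Members had a median GC of 37.6% and the windows 34.7%, which differ in the direction of the words rich in A and T, and the part of GC in these shares was not tested. The higher shares of CACGTG and GAGAGA were not particular to X. Autosomal distal peaks held them in 2.47% and 7.45%, against 1.70% and 5.06% of the windows on I to V.

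Members were denser on X than distal peaks elsewhere. X held 128.9 per Mb of sequence that meets the rule, and I to V held 52.6, 75.2, 70.5, 68.2 and 83.7. Together the autosomes had 70.7, a ratio of 1.82, and promoter peaks away from small RNA genes showed a ratio of 1.61, so promoters on X were denser in peaks too. Members of the optimal list were at 1.75 per Mb on X and 0.480 on I to V, a ratio of 3.65.

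Along X the members were spread throughout. The left 25% of the chromosome held 27.6% of members and 25.51% of the sequence that meets the rule, the middle 50% held 46.1% and 49.1%, and the right 25% held 26.3% and 25.4%. The optimal members were split 9, 8 and 8. The densest Mb, from 1 to 2 Mb, had 160 members, or 192.8 per Mb of such sequence, and the sparsest, from 10 to 11 Mb, had 99.8. Neighbouring members were a median of 6373 bp apart, and 85 neighbouring pairs lay within 444 bp, the usual width. Optimal members were at least 44557 bp from each other, with a median of 532120 bp.

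Exons held more of the members than of the sequence that meets the rule. Coding exons held 417 (22.7%, 20.8 to 24.6%, against 19.1% of that sequence), untranslated exons 95 (5.16% against 4.13%) and genes of non-coding RNA 78 (4.24%, 3.37 to 5.26%, against 2.17%). Introns held 530 (28.8%, 26.7 to 30.9%, against 29.9%) and intergenic sequence 720 (39.1%, 36.9 to 41.4%, against 44.7%). Autosomal distal peaks had 32.8% in coding exons, where 24.3% of the sequence was coding, and 30.1% in intergenic sequence, against 35.9%. The optimal members were placed otherwise, with 19 of 25 intergenic (76.0%, 54.9 to 90.6%), 3 in introns, 2 in coding exons and 1 in a gene of non-coding RNA. Pseudogenes formed no class of their own, and 1 of the 19, the T26C11.2 peak, lay in a pseudogene. Median GC was 45.5% in coding exon members, 47.5% in those of non-coding RNA genes, 33.7% in introns and 34.7% between genes, and the part of GC in these shares was not tested.

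**Figure D5:**
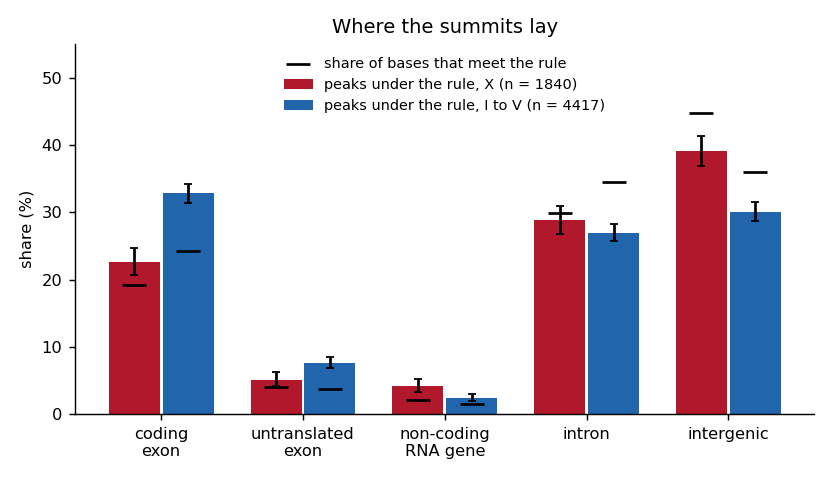
Share of distal summits in 5 kinds of sequence, for 1840 members on X (red) and 4417 autosomal peaks (blue), as percent with exact 95% intervals. Black lines mark the share of the sequence that meets the rule; coding exons lie above their line and intergenic sequence below it on X and on I to V.

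Intergenic members lay upstream of the nearest gene as often as the sequence around them. Of 720, 531 (73.75%, 70.4 to 76.9%) were upstream of the nearest protein-coding start, against 73.4% of the intergenic sequence that meets the rule. The distance to the nearest start had a median of 1817 bp and reached 16813 bp, and 14 members were over 10000 bp away. Within 500 bp of a protein-coding transcript end lay 18.6% of members (16.9 to 20.5%), against 14.3% of the sequence that meets the rule. Repeats marked in the reference held 26.3% of summits against 31.5% of that sequence. The 31 bases around the summit occurred more than once in the genome for 42 members (2.28%) and for none of the 25 optimal ones, against 6.28% of the X windows and 2.94% of all nuclear pooled peaks.

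Of the non-coding genes, the annotated class ncRNA, a large set of short transcripts, held 72 members (3.91% of members, 1.88% of the sequence). The 38 lincRNA genes held 7 (0.380%, against 0.280% of the sequence). The 74 microRNA genes held none, and cover 0.0454% of the sequence, too little for that count to tell anything. The 178 pseudogenes held 18 members (0.978%, against 2.41% of the sequence).

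Bodies of 764 of the 2731 protein-coding genes of X (28.0%) held a member, at 139.1 members per Mb of sequence that meets the rule. The most were 7 each in nhr-27, a nuclear hormone receptor gene, and in unc-2, which encodes the pore subunit of a calcium channel. These genes are 102.8 and 52.6 kb long. Next, with 6 each, came gap-2, a Ras GTPase activator gene, him-4, which encodes the matrix protein hemicentin, lin-14, and toca-1, which acts in endocytosis. The highest signal in nhr-27 was 40.6 and in unc-2 43.9, far below the optimal members.

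Of the 6 gene lists, collagens of the cuticle had the highest density of members. Of 27 on X, 17 held a member (63.0%, 42.4 to 80.6%), at 923.7 per Mb over only 0.0184 Mb of sequence. All but that of col-186, at 1298 bp, lay between 500 and 1000 bp from the nearest start, against 21.6% of all members. Collagen genes had a median length of 1.07 kb, so this density rests on a narrow strip beside the rule's start distance. Of the 17 members 5 were in both replicates, against 241 of 1067 members in all X protein-coding genes. Examples of these collagens were col-164 (signal 60.2), col-165 (49.6), col-173 (44.2) and col-172 (31.03). Of the 17 members 16 lay in coding exons, and their median GC was 61.4%, with a range of 48.5 to 66.3%. GC was thus high where the collagen members lay, and its part in the count was not tested.

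Other families were nearer to the value of all genes. Nuclear hormone receptor genes, relatives of nhr-179, held members in 12 of 23 (122.2 per Mb), and 8 of their 21 members were in both replicates. Over all X protein-coding genes this was 241 of 1067 members. Of the receptor genes, nhr-137 held 2 members, both in both replicates, with a highest signal of 45.8. Ion channel genes held members in 13 of 36 (133.1 per Mb, with 2 of 23 members in both replicates). Homeobox genes named ceh held them in 7 of 18 (157.4, with 1 of 9 in both). Neuropeptide and insulin-like genes held them in 5 of 34 (229.7, with 0 of 5 in both replicates). Chemoreceptor genes held members in 2 of 33 (57.9, with 1 of 3 in both replicates).

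Genes that count X chromosomes or load the dosage compensation complex were mostly without a member, as were most genes of X. Of 6 such genes, fox-1, an RNA-binding protein gene that acts as an X signal, held 3 members, and the others none. The highest of the 3, in an intron (chrX:2451014-2451457), had a pooled signal of 46.8, with 20.4 in replicate 2 and 17.2 in replicate 3. A second intronic one had 45.3, with 21.9 and 20.96, and the third, in a coding exon, had 34.2 and was found in replicate 3 alone. The nearest member was 951 bp from sex-1, a nuclear hormone receptor that acts as an X signal, with a signal of 30.4. It was 2081 bp from ceh-39, 5656 bp from sdc-2, 5999 bp from xol-1, the switch gene these signals repress, and 11913 bp from sdc-1. For comparison, the 1967 X genes that hold no member had a median distance of 3535 bp to the nearest, with an upper quartile of 7254 bp. The signals of these nearest members were 34.2, 50.1, 34.7 and 43.6, none among the 100 highest.

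Among peaks on either side of the rule's distances, just inside the start distance were cdd-1, at 501 bp with a signal of 38.1, and blos-8, at 502 bp with 36.7. Just outside were cytb-5.1, at 497 bp with 54.2, and mbr-1, at 498 bp with 47.0. The pair outside had the higher signals, and both of its peaks were in both replicates, unlike the pair inside. For small RNA genes, C02B4.3 at 211 bp (46.9) and npr-8 at 212 bp (58.7) were kept, and aexr-3 at 152 bp (35.97) and sto-4 at 191 bp (48.7) were not.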

How the data were processed

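NHR-179 ChIP-seq peaks of 2 biological replicates, 1 group, were used. Lists of each replicate and of the pool hold peaks and background, per the deposited descriptions, and were derived from the replicate alignments and an additional file, and the labels name a possible control. The optimal list was made by the irreproducible discovery rate. No aligner, peak caller or threshold is given in the sources used here. The authors deposited for each peak a signal value, of unstated scaling, and a −log10 q-value. The files analysed hold no counts, so depth is unknown. The ce10 lists were not used here.

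Summits were set against the WBcel235 genome and Ensembl release 115 gene models, and classed by the first that applied of coding exon, untranslated exon, gene of non-coding RNA, intron and intergenic. Pseudogenes outside the other classes counted as intergenic. Shares have exact Clopper-Pearson 95% intervals for counting error only. Peaks are not replicates and there was no contrast, so no p-value was computed. Functions were tested on simulated peaks. Python 3.11.15, NumPy 2.4.6, SciPy 1.17.1 and pandas 2.3.3 were used.

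Named were the 25 members with the highest signal, the optimal members, the genes holding the most members, peaks on either side of the rule's distances, members nearest to the sex determination genes and up to 4 genes of each list. A peak was named by the gene that holds its summit, otherwise by the nearest start. The remaining members of fox-1 and the first member outside the optimal list were added after their values were seen. Members and lists were chosen with earlier results of these data known. Alternatives used 1 replicate's list, other distances, windows, subsets and classes.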

Additional observations from a re-analysis of the deposited data

How the results depend on the processing

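Of 102 alternative values of the 10 measures, 75 stayed within the main value's 95% interval, or within 1.5 times the main count. No paired analysis was possible because all samples form 1 group. With 1 replicate's list in place of the pooled one, the count of members ran from 2261 to 2640, the share in the optimal list from 0.795 to 1.06%, the middle 50% of X from 47.1 to 48.6% and the median GC from 35.6 to 37.6%. With the upper 50% of members by signal, the count was 920, the share in the optimal list 2.72%, in both replicates 40.2%, with GCGCAGGG 1.09% and the median GC 39.6%. With the 25 optimal members alone, these were 84.0% in both replicates, a rho of 0.766, 76.0% intergenic, 12% in introns, 8.0% in coding exons, 32% in the middle 50% of X, 32% with GCGCAGGG and a median GC of 43.6%. Without them, rho was 0.127 and the share with GCGCAGGG 0.110%, an alternative added after the data were seen. The share in both replicates was 14.6% with summits within 50 bp, 32.1% within 200 bp and 39.2% with overlapping intervals. Of the 25 named optimal members, 15, 23 and 25 were in both replicates under these. Intergenic sequence held 42.0% without the class of non-coding RNA genes. With X cut in 3 equal parts, the central part held 30.5% of members. GCGCAGGG was in 1.20% of windows reaching 250 bp from the summit, and, in alternatives added after the data were seen, in 3.59% with 1 mismatch allowed and 1.14% of whole peak intervals. Against the sequence that meets the rule, 44.7% intergenic and 19.1% coding, the optimal members alone turned the direction, intergenic from below to above and coding exons from above to below. Unknown depth limits what a missing peak in 1 replicate can show.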
